A study of Mus musculus with 12 samples.

Results

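Scavenger receptors are cell-surface and lysosomal proteins with which macrophages bind and take up modified lipoproteins, dying cells, bacteria and haemoglobin complexes. They belong to several unrelated protein families and share ligands more than they share sequence. In the brain, Cd163 and Mrc1 are widely used to mark macrophages of the borders and vessels, whereas Cd68 marks lysosome-rich phagocytes, activated microglia among them. Accessibility at 10 such genes (Marco, Msr1, Cd36, Scarb1, Scarb2, Cd163, Cd68, Stab1, Mrc1 and Colec12) was compared between graft-derived and host brain macrophages. The genes were chosen by name, and their members are all accessible regions (peaks) that the deposited annotation assigns to them. There were 70 such peaks of 60288 in untreated mice and 55 of 54953 after lipopolysaccharide (LPS). Of the 10 genes 9 had at least 1 peak, and no peak was annotated to Colec12.

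The libraries are ATAC-seq profiles, in which a transposase inserts adapters into open DNA, from bone marrow chimeras. Wild-type C57BL/6J mice were irradiated with 950 cGy and received donor marrow. The labels give an interval of 3.5 or 9 months after that. Mice then stayed untreated or were given 2.5 mg/kg of LPS, a bacterial endotoxin, 12 h before killing. The labels give neither the age nor which interval applied to which mouse. The paper describes recipients of 6 weeks, congenic wild-type CD45.1 donors, and 9 months between transplantation and LPS or killing. Every group had been irradiated and transplanted, so no unmanipulated microglia were included. From each brain, CD45.1 cells (graft) and CD45.2 cells (host microglia) were sorted by the allelic form of the leukocyte antigen CD45 through a gate that kept Ly6C/G-, CD11b+ and CD45lo cells. There are 12 libraries in 4 groups of 3. Mice 4, 5 and 6 gave the untreated CD45.1 and CD45.2 groups, and mice 1, 2 and 3 the LPS groups of both populations. Libraries held 8392877.5 to 9107770 tags in untreated mice and 2966364 to 6556594.5 after LPS. Values below are normalised tags, that is, tags in a peak divided by the size factor of the library, and are given in the order of the mouse numbers. Differences are log2 fold differences of CD45.1 over CD45.2 ± SE with n = 3 libraries per group, tested with DESeq2 across all peaks or genes. Calls of single peaks needed a fold difference above 4 with an adjusted p below 0.01, and the tags summed over a gene's peaks passed at an adjusted p below 0.05.

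Marker genes were read from the same summed tags. Over all genes 7.35% passed as higher in untreated CD45.1 cells and 7.46% in CD45.2 cells, and 4.10% and 2.99% after LPS. All 10 microglia markers had peaks in both tables, and Sall1, a transcription factor of microglia, had 989, 1115 and 1022 normalised tags in untreated CD45.2 cells against 123, 187 and 23.2 in CD45.1 cells. Sall1 passed as higher in CD45.2 cells in both treatments, but most of the 10 markers passed in neither direction. Of the 10 markers 0 passed as higher in CD45.1 cells in either treatment (medians -0.17 and -0.07). Border macrophage markers (Pf4, Cbr2, F13a1, Folr2, Clec10a and Ms4a7, with Lyve1 without a peak) summed to 489 to 579 in untreated CD45.1 libraries and 227 to 263 in CD45.2 libraries, and to 247 to 269 and 164 to 209 after LPS. Of the 6 with a peak, 4 passed the test as higher in untreated CD45.1 cells, and none passed after LPS, where 5 were tested. Neuronal markers (Rbfox3, Snap25 and Syt1) summed to 27.5 to 39.4 in untreated CD45.1 and 171 to 202 in CD45.2 libraries. Endothelial markers (Cldn5, Cdh5 and Pecam1) summed to 116 to 123 and 311 to 367. All 3 neuronal markers but only 1 of 3 endothelial markers, Cdh5, passed as higher in untreated CD45.2 cells. Also passing in that direction were 1 of 3 astrocyte markers (Slc1a2), 1 of 3 oligodendrocyte markers (Mog) and the T cell marker Lck. The other T cell markers, Cd3e and Cd3g, had no peak in either treatment. Of the monocyte markers (Ccr2, Ly6c2, Chil3 and Plac8) 3 were tested in untreated mice and 4 after LPS, and 0 passed in either direction. Of the neutrophil markers, Ly6g and S100a8 had no peak in untreated mice and Retnlg was higher in CD45.1 cells (log2 difference 4.34 ± 0.51, adjusted p = 2.82e-15 by DESeq2), while S100a9 was lower in them (-1.16 ± 0.42, adjusted p = 0.0387). B cell markers had no peak. Because these are bulk libraries, fewer cells with an open site and less opening per cell cannot be told apart.

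Sequences of 200 bp centred on 6 peaks are printed below because results given further on turn on them, among them a site open in host cells, sites more open in graft cells and sites that changed with LPS. They are the plus strand of build mm9 (NCBIM37), and capitals mark matches on either strand to motifs searched by letters. These were TGANTCA (AP-1), TGANNTCA (AP-1 or CRE), TTGCNNAA (CEBP), AGGAAGT (PU.1), TGTGGTT (RUNX), GAAANNGAA (IRF) and CACGTG (E-box of TFEB and MITF), with an NF-kB motif searched by name.

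Marco, chr1:122414288-122414487, 12.7 kb upstream of the start: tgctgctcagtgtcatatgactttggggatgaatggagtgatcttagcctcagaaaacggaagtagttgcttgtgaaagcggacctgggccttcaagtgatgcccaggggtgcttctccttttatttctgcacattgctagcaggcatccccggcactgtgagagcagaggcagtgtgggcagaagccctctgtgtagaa

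Cd36, chr5:17345488-17345687, first intron, 3.9 kb upstream of an internal start: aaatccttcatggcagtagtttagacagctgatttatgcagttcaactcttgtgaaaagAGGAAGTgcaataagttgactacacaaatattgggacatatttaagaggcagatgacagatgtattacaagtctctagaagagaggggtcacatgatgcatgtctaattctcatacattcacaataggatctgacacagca

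Cd36, chr5:17385807-17386006, first intron, 8.9 kb from the start: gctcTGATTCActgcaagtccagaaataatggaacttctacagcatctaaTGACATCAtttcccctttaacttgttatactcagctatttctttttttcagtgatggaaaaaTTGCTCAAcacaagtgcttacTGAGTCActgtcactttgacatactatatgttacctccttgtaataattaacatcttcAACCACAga

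Msr1, chr8:40730006-40730205, 2.1 kb upstream of the start: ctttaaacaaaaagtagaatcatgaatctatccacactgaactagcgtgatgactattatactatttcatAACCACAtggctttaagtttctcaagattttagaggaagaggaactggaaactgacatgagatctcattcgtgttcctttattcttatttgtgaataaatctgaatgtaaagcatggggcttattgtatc

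Scarb1, chr5:125754182-125754381, intergenic, 67.2 kb from the start: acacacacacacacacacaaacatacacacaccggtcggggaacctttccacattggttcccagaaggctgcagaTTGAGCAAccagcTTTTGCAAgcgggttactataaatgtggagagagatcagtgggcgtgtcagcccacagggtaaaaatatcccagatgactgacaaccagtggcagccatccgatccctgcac

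Scarb2, chr5:92915852-92916051, first intron, 18.7 kb from the start: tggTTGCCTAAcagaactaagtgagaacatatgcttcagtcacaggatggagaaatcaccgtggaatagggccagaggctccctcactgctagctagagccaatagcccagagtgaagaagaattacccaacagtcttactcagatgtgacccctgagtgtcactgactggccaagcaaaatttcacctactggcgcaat

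The Cd36 window at 8.9 kb held matches at position 5 and 134 (AP-1), 51 (AP-1 or CRE), 113 (CEBP) and 192 (RUNX), counted from its left end. The other Cd36 window held a PU.1 match at position 60, the Msr1 window a RUNX match at 71, the Scarb1 window CEBP matches at 76 and 89, and the Scarb2 window a CEBP match at 4. The Marco window held none of these letters. Over all windows of 200 bp in the untreated table, 8.12% held the AP-1 motif, 8.94% the AP-1 or CRE motif, 9.82% the CEBP motif, 20.1% the PU.1 motif, 5.65% the RUNX motif, 8.36% the IRF motif, 5.65% the E-box and 6.01% the NF-kB motif. Of the 70 scavenger receptor windows, 13 held the CEBP motif (18.6%), 14 the PU.1 motif (20.0%), 8 the RUNX motif (11.4%) and 4 the AP-1 motif (5.71%). In the LPS table the CEBP motif was in 15 of 55 windows (27.3%) against 12.2% of all, and the AP-1 motif in 9 (16.4%) against 13.4%. These matches are descriptions of letters and not of binding.

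The question of the comparison in untreated mice was whether scavenger receptor loci are open alike in engrafted cells and host microglia. They fell into 3 kinds. Marco was open in host cells and close to the detection floor in graft cells. By summed tags Cd36 and Mrc1 were more open in graft cells, as were single sites of Cd163 and Msr1. The summed tags of Scarb1, Scarb2, Stab1 and Cd68 did not pass the test in either direction. Of the 70 peaks 68 passed the filter on low counts, and 11 were called higher in CD45.1 cells and 6 in CD45.2 cells. Over all 59170 peaks tested, 3.78% were called higher in CD45.1 and 2.65% higher in CD45.2. The median log2 difference was 0.23 over the 68 scavenger receptor peaks and 0.00 over all peaks. By summed tags, 2 of 9 genes were higher in CD45.1 cells and 1 in CD45.2 cells, beside 7.35% and 7.46% of 16166 genes. After LPS 54 of 55 peaks were tested, and 6 were called higher in CD45.1 cells and 6 in CD45.2 cells, where 1.78% and 1.19% of 49180 peaks were called. The median log2 difference was 0.11 for the members and -0.01 for all peaks. By summed tags 3 genes were higher in CD45.1 cells and 1 in CD45.2 cells after LPS, beside 4.10% and 2.99% of 15652 genes. A fit with the mouse as a block, used because both populations came from the same animal, left 3 in place of 6 peaks higher in CD45.1 cells after LPS.

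**Figure D1:**
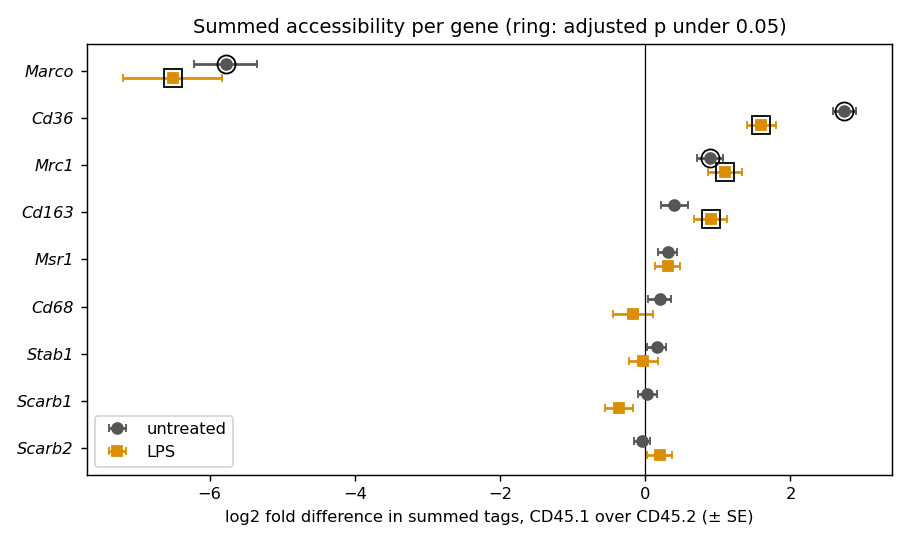
Log2 fold difference (CD45.1 over CD45.2, ± SE, n = 3 libraries per group) of tags summed over all peaks of each gene, in untreated mice (circles) and after LPS (squares), with rings around values at an adjusted p under 0.05. Marco lies far to the left at -5.78 and -6.51, Cd36 to the right at 2.74 and 1.60, and the lower 5 genes lie within 0.36 of 0.

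Marco, a class A receptor with a collagenous stalk that binds bacteria and particles, showed the largest difference of the 9 genes. Its tags summed to 213, 231 and 244 in untreated CD45.2 libraries and to 3.28, 4.17 and 5.28 in CD45.1 libraries. The groups were far apart, with a log2 difference of -5.78 ± 0.43 (adjusted p = 3.73e-38, DESeq2). After LPS the sums were 161, 125 and 167 in CD45.2 cells against 2.46, 2.65 and 0.480 in CD45.1 cells, a log2 difference of -6.51 ± 0.68 (adjusted p = 7.23e-19). The gene (ENSMUSG00000026390, chr1:122371115-122401661, minus strand) had no promoter peak and no peak in its body. All its peaks were intergenic, 5.4 to 55.3 kb from the start on either side.

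All 6 untreated Marco peaks were called higher in CD45.2 cells. The strongest, 12.7 kb upstream and shown by sequence above, had 60.6, 67.7 and 59.2 normalised tags in CD45.2 cells and 0.466, 0.913 and 2.18 in CD45.1 cells. Every host library was above every graft library, and the log2 difference was -6.01 ± 0.88 (adjusted p = 1.35e-09). At 55.3 kb from the start the values were 58.2, 54.6 and 51.1 against 1.40, 1.83 and 0 (log2 difference -5.40 ± 0.78, adjusted p = 9.80e-10). At 37.6 kb they were 32.0, 39.1 and 60.9 against 0.466, 0.913 and 2.18 (log2 difference -5.52 ± 0.91, adjusted p = 9.76e-08). None of the 6 was in the peak list of a single CD45.1 library, whereas 5 of them were in the lists of all 3 CD45.2 libraries. The remaining 3 peaks rested on 0.5 to 1 tag over the whole CD45.1 group, so their depth-scaled ratios carry wide counting intervals (95%, exact, with totals rounded up to whole tags). The ratio of CD45.2 to CD45.1 was 89.1 (15.7 to 3577) at 36.0 kb, 73.3 (12.9 to 2955) 5.4 kb upstream and 77.8 (6.67 to 1594) 27.7 kb upstream.

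After LPS 6 of 7 Marco peaks were called, again higher in CD45.2 cells. The peak 27.7 kb upstream had 41.2, 20.9 and 43.6 normalised tags in CD45.2 cells and 0.809, 0 and 0 in CD45.1 cells, where 1 tag in all gave a ratio of 109 (19.2 to 4339). The peak 12.7 kb upstream had 22.8, 33.1 and 37.1 against 0.809, 0 and 0, a ratio of 102 (18.1 to 4090). At 55.3 kb and 53.4 kb no CD45.1 library held a tag. With 3 tags over the group as the floor these peaks were at least 21.8-fold and at least 22.5-fold higher in CD45.2 cells. The peak at 37.6 kb had 7.88, 17.9 and 20.2 against 0.809, 0 and 0.472, and 1.5 tags in CD45.1 cells gave a ratio of 35.4 (7.04 to 224). The peak at 36.0 kb had 26.3, 9.16 and 15.7 against 0, 2.61 and 0 (adjusted p = 0.00298), and it was lost with the mouse as a block (adjusted p = 0.116). The peak 19.2 kb upstream had 5.25, 2.62 and 9.5 against 0 in each CD45.1 library and was not called (adjusted p = 0.0207). Leaving out single libraries ended the call at the 37.6 kb and the 36.0 kb peak in 4 of 6 fits each, but not at the 4 others.

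**Figure D2:**
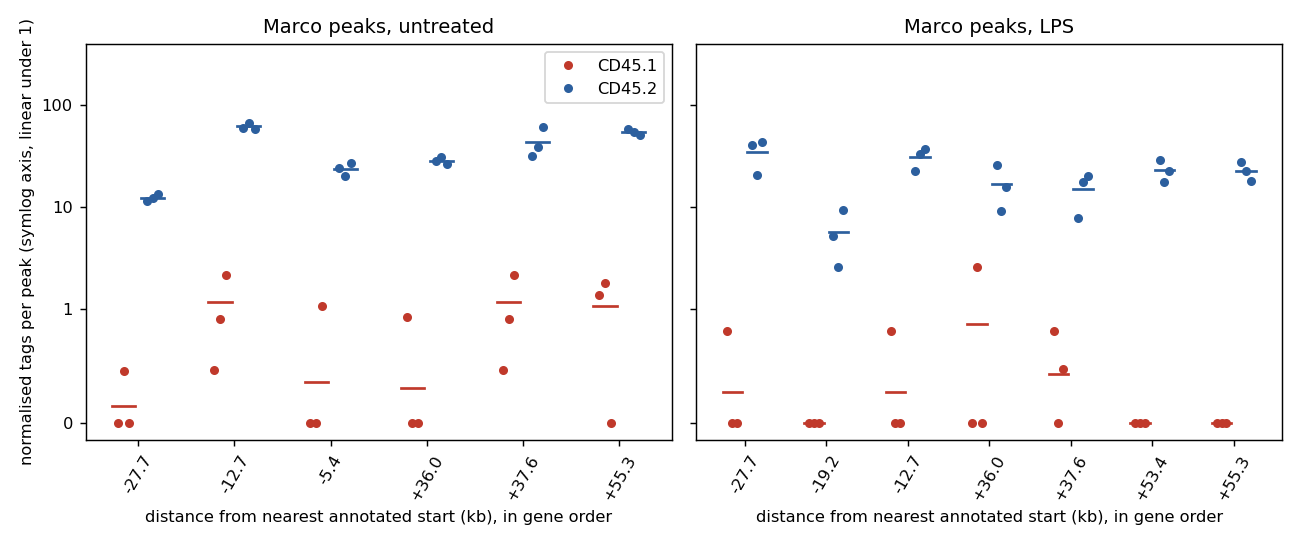
Normalised tags at each Marco peak, in untreated mice (left) and after LPS (right), against the distance of the peak from the start, on a symlog axis that is linear under 1. Points are libraries and bars are group means, and at each of the peaks all CD45.2 points lie above all CD45.1 points.

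The Marco gene lies 17.6 Mb from Ptprc, the gene of CD45, for which graft and host differ by design, and the extent of donor sequence around Ptprc was not tested. Among 19 tested peaks of other genes within 500 kb of Marco, 1 was called higher in untreated CD45.2 cells and 0 in CD45.1 cells, with a median log2 difference of -0.32. After LPS it was 1 of 18, with a median of -0.28. Within 25 Mb of Ptprc 25 of 1054 untreated peaks were called higher in CD45.2 cells (2.37%) and 58 in CD45.1 cells (5.50%). In untreated CD45.1 libraries the summed Sall1 tags were 123, 187 and 23.2 beside summed Marco tags of 3.28, 4.17 and 5.28. What these tags came from was not tested. Neuronal markers and the endothelial marker Cdh5 were also higher in untreated CD45.2 libraries. After LPS 2 of 3 neuronal markers and Cdh5 passed as higher in CD45.2 cells. The neuronal sums were then 53.7 to 93.4 in CD45.2 and 15.6 to 16.8 in CD45.1 libraries. The part of such cells in the Marco difference was not tested.

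Msr1 is the other class A receptor of the set with peaks and takes up modified lipoproteins. Its summed tags did not pass the test in untreated mice (442, 468 and 361 in CD45.1 against 379.9, 299.5 and 357 in CD45.2, log2 difference 0.31 ± 0.13, adjusted p = 0.109) nor after LPS (276, 291 and 328 against 277, 232 and 219, 0.31 ± 0.17, adjusted p = 0.336). Single sites near the start did differ. The peak 2.1 kb upstream had 25.7, 31.5 and 43.6 normalised tags in untreated CD45.1 cells and 5.74, 3.48 and 4.46 in CD45.2 cells, and was called (2.88 ± 0.54, adjusted p = 4.31e-06). The promoter peak had 43.4, 33.3 and 35.9 against 12.3, 5.03 and 12.6, and its difference of 1.92 ± 0.44 (adjusted p = 0.000249) fell short of 4-fold. At both sites all graft libraries were above all host libraries. The strongest untreated Msr1 peak, in exon 5 of 10, had 126, 154 and 101 against 169, 127 and 157, groups that overlap (-0.23 ± 0.19, adjusted p = 0.553).

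Cd36, a class B receptor for oxidised lipoproteins and long-chain fatty acids, was the gene most open in graft cells relative to host cells. Its tags (ENSMUSG00000002944, chr5:17287508-17394777, minus strand) summed to 604, 624 and 591 in untreated CD45.1 libraries and to 98.8, 61.3 and 116 in CD45.2 libraries. This is a 6.67-fold difference (log2 2.74 ± 0.16, adjusted p = 1.03e-59). After LPS the sums were 343, 438 and 543 against 163, 124 and 152, a 3.03-fold difference (1.60 ± 0.20, adjusted p = 6.71e-14). The sums run over 10 peaks in untreated mice and 6 after LPS, so the fold differences do not cover the same sites. The groups did not overlap in either treatment. Of its 10 untreated peaks 7 were called higher in CD45.1 cells, and 3 of 6 were after LPS.

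The Cd36 peaks fall into 2 sets. At several sites in the first intron and at the annotated starts the host libraries held few tags. The peak 3.9 kb upstream of an internal start had 91.0, 78.5 and 79.5 normalised tags in untreated CD45.1 cells and 0, 1.94 and 0.812 in CD45.2 cells (log2 6.45 ± 0.87, adjusted p = 4.09e-11). The peak at 12.1 kb had 51.3, 50.7 and 57.2 against 1.64, 0.774 and 2.03 (5.37 ± 0.78, adjusted p = 1.22e-09). The peak at 6.4 kb had 48.0, 47.0 and 80.1 against 1.64, 1.55 and 4.87 (4.36 ± 0.58, adjusted p = 1.92e-11). The peak at 8.9 kb had 60.2, 45.6 and 72.4 against 4.10, 0.774 and 4.46 (4.35 ± 0.57, adjusted p = 9.77e-12). Each of these was in the lists of all 3 graft libraries. The promoter peak, 16 bp from an annotated start, was weaker, with 22.9, 19.2 and 22.3 against 0, 2.32 and 1.22 (3.76 ± 0.81, adjusted p = 8.22e-05), and the peak 2.7 kb from that start had 20.1, 25.6 and 18.5 against 4.92, 2.32 and 4.06 (2.59 ± 0.62, adjusted p = 0.00056). The call at 2.7 kb was lost in 3 of the 6 fits that left out a library. A further promoter peak, 41 bp from another start, missed the threshold at 9.80, 3.65 and 13.1 against 0.819, 0.774 and 0.406 (adjusted p = 0.0118).

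The other set was open in both populations and more so in graft cells. The strongest Cd36 peak, 4.9 kb upstream of an internal start, had 179, 208 and 149.7 normalised tags in CD45.1 cells and 48.3, 33.3 and 56.0 in CD45.2 cells, just under 4-fold (1.97 ± 0.22, adjusted p = 8.21e-16). The peak at 7.7 kb had 111, 120.0 and 114 against 34.4, 13.9 and 38.1, just over it (2.03 ± 0.28, adjusted p = 1.54e-10, and 1.64 without the CD45.2 library of mouse 5). Both were in the lists of all 6 libraries. After LPS the peaks at 3.8, 6.4 and 12.1 kb were called, with host values of at most 6.98, 4.38 and 5.05 normalised tags. At 3.8 kb graft libraries had 56.6, 58.7 and 96.2 (3.82 ± 0.47, adjusted p = 6.15e-13). The strongest peak then had 91.4, 116 and 133 against 80.6, 55.0 and 63.8, groups that still did not overlap (0.79 ± 0.24, adjusted p = 0.0197).

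**Figure D3:**
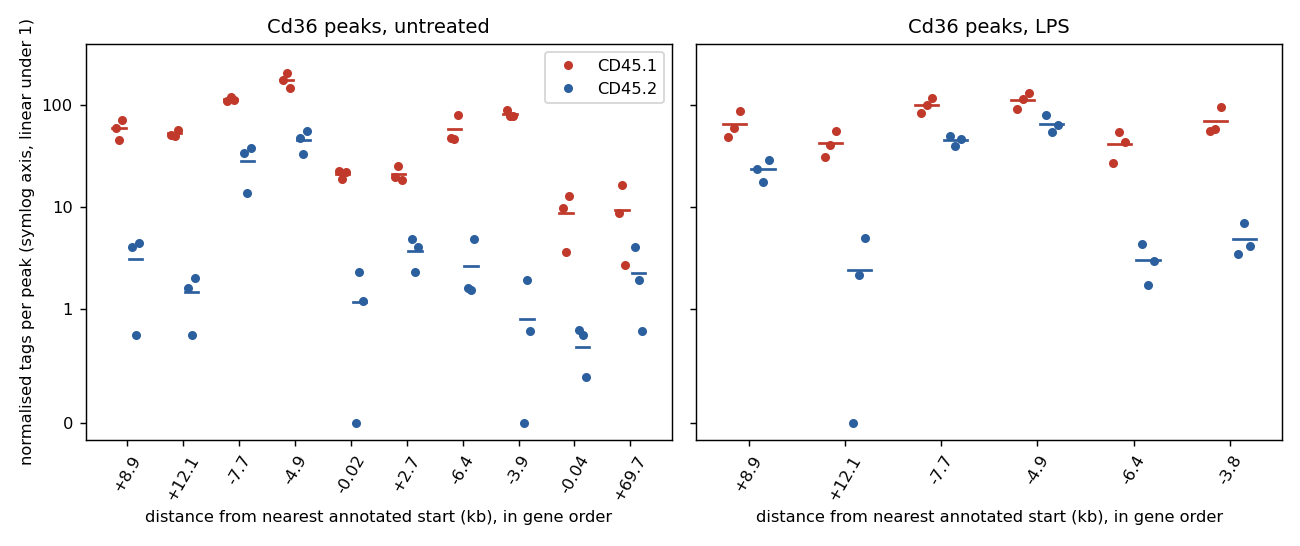
Normalised tags at each Cd36 peak in gene order, labelled by the distance from the nearest annotated start, in untreated mice (left) and after LPS (right), on a symlog axis linear under 1. CD45.2 points are at most 4.92 at 8 of the 10 untreated peaks but lie between 13.9 and 56.0 at the peaks at 7.7 and 4.9 kb, and between 17.9 and 80.6 at 3 peaks after LPS.

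Scarb1, the receptor for high-density lipoprotein, and Scarb2, the lysosomal membrane protein that carries glucocerebrosidase to lysosomes, are the other class B members. Scarb1 tags summed to 404, 389 and 482 in untreated CD45.1 libraries and 354, 456 and 426 in CD45.2 libraries, overlapping groups (0.03 ± 0.13, adjusted p = 0.944). After LPS they were 154, 126 and 124 against 174, 172 and 176, which did not overlap but did not pass the test (-0.36 ± 0.19, adjusted p = 0.303). The strongest Scarb1 peak, 17.4 kb upstream, had 103, 88.5 and 112 against 94.2, 122 and 124 (adjusted p = 0.658), and the promoter peak 56.4, 52.5 and 58.8 against 77.8, 73.5 and 62.9 (-0.35 ± 0.24, adjusted p = 0.421). The intergenic peak 67.2 kb from the start was the site of this gene that differed, with 68.1, 52.5 and 105 against 19.7, 16.6 and 26.4 (1.83 ± 0.33, adjusted p = 1.46e-06), short of 4-fold. Scarb2 tags summed to 568, 594 and 505 against 616, 543 and 578 in untreated mice (-0.05 ± 0.11, adjusted p = 0.877) and to 345, 418 and 339 against 373, 324 and 271 after LPS (0.20 ± 0.17, adjusted p = 0.640). An intron peak 20.6 kb from the start had 9.80, 15.1 and 4.90 normalised tags in untreated CD45.1 cells and 22.9, 32.9 and 35.3 in CD45.2 cells, groups that did not overlap (-1.69 ± 0.47, adjusted p = 0.00373), and it fell short of 4-fold. The Scarb2 promoter peak was its strongest in untreated mice, with 222, 219.5 and 243 normalised tags in CD45.1 and 271, 207 and 222 in CD45.2 cells (-0.02 ± 0.14). The groups overlapped there.

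Cd163, the receptor for haptoglobin-haemoglobin complexes, had no promoter peak. Its sums were 152, 131 and 137 in untreated CD45.1 and 101, 89.5 and 128 in CD45.2 cells (0.40 ± 0.19, adjusted p = 0.171), and 106, 119 and 110.0 against 60.8, 67.7 and 52.6 after LPS (0.90 ± 0.23, adjusted p = 0.00244). With the mouse as a block the adjusted p after LPS was 0.0602, so this call rests on the unpaired fit, and it was also lost without the CD45.1 library of mouse 2 or the CD45.2 library of mouse 3. The peaks that differed were weak ones inside the gene, 15.1 to 17 kb from the start. Its strongest peak, 31.2 kb upstream, had 74.6, 77.6 and 81.1 against 74.6, 53.4 and 87.2 in untreated mice (0.11 ± 0.24). The peak in intron 11 of 16 had 24.7, 13.2 and 26.1 against 0, 0 and 2.03 in untreated mice, where 2.5 host tags gave a ratio of 26.4 (7.21 to 109) and an adjusted p of 0.000146 by DESeq2. This peak overlaps an RLTR19-int repeat, annotated to the LTR class, where reads may come from other copies. The peak in exon 11 of 17 had 16.8, 2.74 and 11.4 against 0 in each host library, at least 10.7-fold higher (adjusted p = 0.000787), a call that 4 of 6 fits without 1 library lost. After LPS both were called again, together with a peak in intron 10 of 16 with 10.5, 13.7 and 11.3 against 0, 0.872 and 0.594 (ratio 19.7, 5.15 to 171). None of the 3 kept its call after LPS with the mouse as a block (adjusted p 0.0246 to 0.0314), or in most fits without 1 library.

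Mrc1, the mannose receptor, had higher tags summed over its annotated peaks in graft cells in both treatments. Its sums were 143, 163 and 166 in untreated CD45.1 cells against 80.2, 82.7 and 90.2 in CD45.2 cells (0.89 ± 0.18, adjusted p = 2.21e-05) and 111, 106 and 118 against 56.4, 52.9 and 48.8 after LPS (1.10 ± 0.23, adjusted p = 7.85e-05). The groups were apart in both. With size factors taken from total tags the untreated call was lost (adjusted p = 0.220). The Mrc1 peak called in untreated mice lies upstream, in an intron of the neighbouring gene Tmem236. This peak, 24.9 kb upstream, had 16.8, 22.4 and 27.8 against 0.819, 4.26 and 2.03 and was called (3.18 ± 0.71, adjusted p = 0.000162), while after LPS it had 16.6, 14.4 and 11.3 against 0.876, 1.31 and 2.97 and narrowly missed (2.85 ± 0.81, adjusted p = 0.0107). The strongest peak, 22.5 kb upstream and also in an intron of Tmem236, had 59.2, 61.6 and 63.7 against 25.4, 24.8 and 26.4 (1.27 ± 0.29, adjusted p = 0.00029). The promoter peak had 23.8, 21.9 and 21.2 against 13.1, 17.03 and 21.5 (0.37 ± 0.42, adjusted p = 0.703), groups that overlap. Peaks in the introns of Mrc1 itself did not pass, although after LPS the graft libraries were above the host libraries at 3.7 kb (2.46 ± 0.88, adjusted p = 0.0683), 4.8 kb (0.91 ± 0.55, adjusted p = 0.461) and 15.4 kb from the start (0.99 ± 0.50, adjusted p = 0.313). Of the border macrophage markers given above, 4 passed as higher in untreated CD45.1 cells and none passed after LPS. The part of such cells in the Mrc1 and Cd163 values was not tested.

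Stab1, a clearance receptor of tissue macrophages and sinusoidal endothelium, had summed tags of 274, 332 and 295 in untreated CD45.1 and 249, 268 and 288 in CD45.2 cells (0.16 ± 0.13, adjusted p = 0.574) and of 174, 195 and 135 against 140.1, 178 and 189 after LPS (-0.03 ± 0.20, adjusted p = 0.964). Its strongest untreated peak, in intron 11 of 68, had 86.8, 127 and 112 against 86.0, 107 and 109. Of its 6 peaks 4 lie in introns of the neighbouring gene Nisch. Cd68, a lysosomal glycoprotein, had a single peak, at its promoter, with 167, 155 and 189 against 129, 153 and 148 in untreated mice (0.23 ± 0.16, adjusted p = 0.441) and 68.3, 58.1 and 42.5 against 49.0, 67.6 and 70.4 after LPS (-0.18 ± 0.28, adjusted p = 0.857). The populations overlapped after LPS.

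Whether LPS changed these sites, and alike in both populations, was asked on peaks matched between the tables at 50% reciprocal overlap. Of the scavenger receptor peaks 42 pairs could be matched, and normalised tags here come from a common fit of all 12 libraries. Treatment goes with the table, the mice and the depth, so a shift shared by a whole table cannot be told apart from LPS, although a constant factor at a peak drops out of the interaction. In CD45.2 cells 9 of the 42 rose after LPS (by more than 2-fold, with an adjusted p below 0.05) and 0 fell, beside 7.68% and 3.70% of 39235 peaks. In CD45.1 cells 5 rose and 0 fell, beside 6.77% and 4.98%. The interaction, the LPS effect in CD45.1 minus that in CD45.2, passed at 2 of 42 peaks and at 0.242% of all. Its median was -0.30 over the members and -0.02 over all peaks.

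Both sites with an interaction were sites that graft cells already held open and that rose more on the log2 scale in host cells after LPS. At the Cd36 site graft cells rose as well. At the Scarb1 peak 67.2 kb from the start CD45.2 cells went from 13.1, 11.3 and 17.9 normalised tags to 95.8, 73.3 and 75.3. CD45.1 cells went from 45.4, 35.2 and 69.2 to 75.6, 66.1 and 51.1, where the treatments overlapped. The rise in host cells was 5.64-fold (2.50 ± 0.30, adjusted p = 4.50e-14), that in graft cells was 0.37 ± 0.27 (adjusted p = 0.343), and the interaction was -2.13 ± 0.40 (adjusted p = 0.00025, and 0.00317 with the mouse as a block). The difference between the populations of 1.83 in untreated mice was -0.34 ± 0.29 after LPS (adjusted p = 0.675). At the Cd36 peak 8.9 kb from the start CD45.2 cells rose from 2.72, 0.527 and 3.02 to 34.1, 25.9 and 42.9 (4.16 ± 0.56, adjusted p = 2.15e-11), and CD45.1 cells from 40.2, 30.6 and 47.7 to 70.3, 89.4 and 130.1 (1.30 ± 0.28, adjusted p = 9.31e-05). The interaction was -2.86 ± 0.63 (adjusted p = 0.00418, and 0.0221 with the mouse as a block). It did not pass without the CD45.2 library of untreated mouse 5 (-2.30, adjusted p = 0.177) or with size factors from total tags (-2.75, adjusted p = 0.0544), the latter a setting chosen after seeing the data, under which the Scarb1 interaction was -1.99 (adjusted p = 0.0477). The remaining Cd36 peaks had negative interactions that did not pass, such as -1.14 ± 0.32 (adjusted p = 0.0887) at the strongest, where host cells rose from 32.1, 22.7 and 37.9 to 116, 79.6 and 94.1 (1.62 ± 0.24, adjusted p = 1.44e-09) and graft cells went from 119, 139.6 and 98.5 to 132, 173 and 197 (0.48 ± 0.20, adjusted p = 0.0785).

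Near the Msr1 start both populations rose. At the promoter CD45.2 cells went from 8.16, 3.43 and 8.52 normalised tags to 46.7, 39.8 and 38.1 (2.64 ± 0.37, adjusted p = 1.27e-10) and CD45.1 cells from 28.9, 22.4 and 23.7 to 68.6, 72.9 and 63.0 (1.46 ± 0.28, adjusted p = 5.74e-06). At 2.1 kb upstream host cells rose by 2.84 ± 0.51 (adjusted p = 9.18e-07) and graft cells by 1.13 ± 0.32 (adjusted p = 0.00504). The rise in graft cells at 2.1 kb was lost without the CD45.1 library of LPS mouse 3 (1.01, adjusted p = 0.0634) or of untreated mouse 4 (0.98, adjusted p = 0.0532). All LPS libraries were above all untreated libraries of the same population at both sites. The interactions, -1.18 ± 0.46 and -1.71 ± 0.60, did not pass (adjusted p = 0.616 and 0.417), so a different response of the populations was not shown. The sites were no longer called between populations after LPS (0.72 ± 0.31, adjusted p = 0.195, and 1.14 ± 0.40, adjusted p = 0.0619). At 9.2 kb upstream, where untreated populations overlapped, values rose from 23.03, 24.2 and 20.1 to 72.1, 83.6 and 82.5 in CD45.1 cells (1.81 ± 0.26) and from 28.8, 18.4 and 29.1 to 61.8, 70.1 and 64.8 in CD45.2 cells (1.40 ± 0.26). The LPS peak was 210 bp wide and the untreated one 118 bp. Per base of peak the rises were 1.25 and 0.84, the latter under 2-fold.

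In both populations a rise of more than 10-fold in tags per peak, not scaled to peak width, lay inside Scarb2. Its peak 18.7 kb from the start, in the first intron, was 95 bp wide in untreated mice and 206 bp after LPS, so it was paired only when any overlap was accepted. In that fit it had 6.85, 5.21 and 8.24 normalised tags in untreated CD45.1 cells and 135, 173 and 166 after LPS, and 10.3, 6.85 and 13.5 against 163, 154 and 149.7 in CD45.2 cells. The rises were 22.8-fold (4.51 ± 0.32, adjusted p = 4.65e-42) and 14.8-fold (3.88 ± 0.28, adjusted p = 5.59e-40), with an interaction of 0.63 ± 0.42 (adjusted p = 0.963). It was in the list of 0 of 3 CD45.1 and 1 of 3 CD45.2 untreated libraries and of all 6 LPS libraries, and it overlaps an Lx8 LINE repeat. Between populations after LPS it had 93.0, 116 and 112 against 113, 106 and 102 (0.00 ± 0.21, adjusted p = 0.998). A second Scarb2 site, 6.0 kb from the start, rose in CD45.1 cells from 15.3, 18.1 and 11.1 to 30.5, 36.9 and 39.9 (1.23 ± 0.35, adjusted p = 0.00515) and had 19.6, 12.4 and 17.9 against 16.4, 19.6 and 31.1 in CD45.2 cells (0.55 ± 0.37). The rise in CD45.1 cells was lost with size factors from total tags (1.19, adjusted p = 0.0672). The Scarb2 promoter moved by 0.17 ± 0.17 in graft and -0.16 ± 0.17 in host cells. In Stab1 the peak 2.4 kb from the start rose in host cells from 52.8, 43.7 and 42.3 to 109.7, 123 and 127 (1.43 ± 0.20, adjusted p = 3.11e-10) and went in graft cells from 68.5, 70.7 and 70.6 to 125, 143 and 90.2 (0.76 ± 0.20, adjusted p = 0.00154, under 2-fold). Of the matched Marco peaks none passed in either population at 50% overlap, and in host cells the peak 12.7 kb upstream went from 40.3, 46.1 and 40.1 to 32.8, 48.0 and 54.7 (0.14 ± 0.31, adjusted p = 0.819). Marco peaks 53.4 kb from the start and 19.2 kb upstream were found only after LPS, and that 5.4 kb upstream only in untreated mice. These could not be paired, so their change with LPS was not tested. The paper describes both LPS-only sites as induced in host cells and reports the loss of another Marco peak. The peak 27.7 kb upstream was 95 bp wide in untreated mice and 220 bp after LPS and was paired only at any overlap. In host cells it went from 7.62, 8.43 and 9.07 to 59.3, 30.3 and 64.3, not scaled to peak width (2.59 ± 0.44, adjusted p = 1.61e-07). At Cd68 the change was -0.06 ± 0.20 in host cells and -0.46 ± 0.20 in graft cells (adjusted p = 0.0894).

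**Figure D4:**
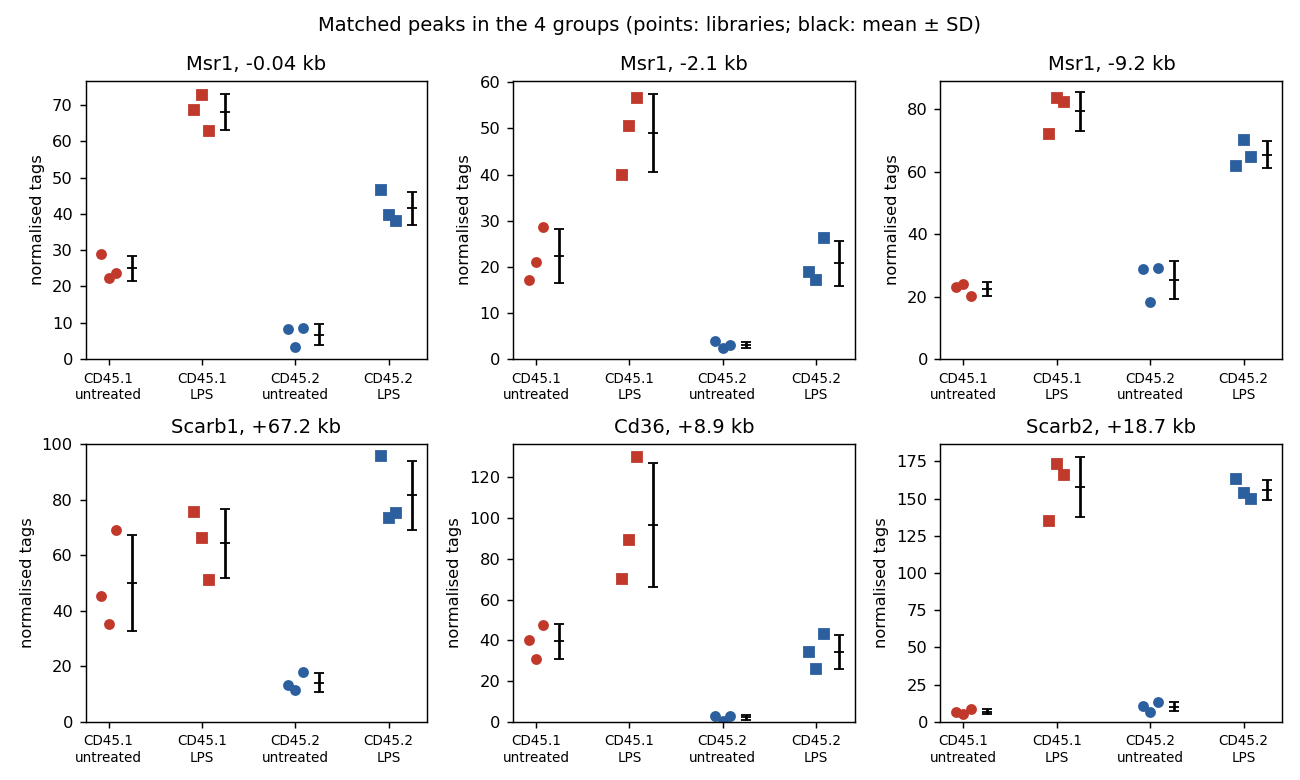
Normalised tags (linear axes from 0) at 6 matched peaks in the 4 groups, with CD45.1 in red, CD45.2 in blue, circles for untreated and squares for LPS libraries, and black marks for mean ± SD. In host cells all 6 sites are higher after LPS, whereas the CD45.1 points of the Scarb1 site overlap between treatments.

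Other genes of the pathways were read from the summed tags, with medians of log2 differences beside 0.00 over all untreated genes and -0.01 over all genes after LPS. The counts below stand beside 7.35% of all genes higher in untreated CD45.1 cells and 7.46% higher in CD45.2 cells. After LPS these shares were 4.10% and 2.99%. The list of other scavenger receptors held 20 symbols, among which Olr1 and Lox1 name the same gene. Of these symbols 14 were tested in untreated mice, of which 3 were higher in CD45.1 and 2 in CD45.2 cells (median -0.25). Cd209a, a lectin of the DC-SIGN family, was higher in host cells in both treatments, at 94.5 ± 32.7 normalised tags (mean ± SD, n = 3) against 15.6 ± 5.72 in untreated mice (-2.60 ± 0.34, adjusted p = 2.37e-12) and 24.04 ± 6.16 against 5.38 ± 2.74 after LPS (-2.22 ± 0.56, adjusted p = 0.00238). The other gene higher in untreated host cells was Timd4, a phosphatidylserine receptor, at 6.13 ± 3.00 against 0.352 ± 0.610 (adjusted p = 0.0334), a call lost with the mouse as a block (adjusted p = 0.117). Higher in untreated graft cells were Cd5l, a soluble scavenger receptor protein (104 ± 6.53 against 42.1 ± 8.50, 1.34 ± 0.24, adjusted p = 4.54e-07), Clec7a, the beta-glucan receptor (0.83 ± 0.20, adjusted p = 0.000438), and Cxcl16, a transmembrane chemokine that also binds oxidised lipoprotein (0.86 ± 0.23, adjusted p = 0.00199). After LPS 13 were tested and Cd209a was the 1 that passed.

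Of 15 genes of lipoprotein and cholesterol handling 14 were tested, of which 3 were higher in untreated CD45.1 cells and 0 in CD45.2 cells (median 0.15). They were Plin2, a lipid droplet coat protein (286 ± 41.9 against 146 ± 11.9, 0.98 ± 0.16, adjusted p = 1.05e-08), Pparg, a lipid-sensing nuclear receptor known to regulate Cd36 (197 ± 11.9 against 109 ± 6.60, 0.85 ± 0.16, adjusted p = 6.23e-06), and Lpl, lipoprotein lipase (128 ± 19.1 against 72.5 ± 12.3, 0.85 ± 0.21, adjusted p = 0.000719). After LPS 2 of 14 were higher in CD45.1 cells (median 0.30), Nr1h3, the receptor LXR alpha (1.00 ± 0.30, adjusted p = 0.0152), and Fabp4, a fatty acid carrier (0.96 ± 0.32, adjusted p = 0.0385), and neither passed with the mouse as a block (adjusted p = 0.181 and 0.298). None of the 9 lysosomal partners of Scarb2 and Cd68 passed in either treatment (medians 0.00 and 0.18). None of the genes of haemoglobin and iron handling passed either, with 8 tested in untreated mice and 9 after LPS (medians 0.01 and -0.13). At the shares of all genes given above few genes of such short lists would pass, so these counts say little about them.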

How the data were processed

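ATAC-seq was performed by the authors on sorted CD45.1 and CD45.2 brain macrophages. The submitters' processing notes name bcl2fastq 2.17.1.14, Bowtie2, Picard 1.108 and HOMER on build mm9. The values the authors deposited are expected counts, that is, unscaled tags per merged peak in steps of 0.5, because each mate of a pair counts 0.5. The authors called peaks per library, and the deposited score of each library's peaks was used only to say whether a peak was in a library's list. Peaks were merged per treatment and annotated to the nearest start, so a peak need not act on the gene it is named for. Any shift of read ends for the transposase is not given in the sources used here.

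Counts were rounded to whole numbers and tested with DESeq2 1.42.0 (R 4.3.3, Wald test, Benjamini-Hochberg adjustment) on peaks with more than 10 tags in at least 1 library, with edgeR 4.0.16 as an alternative, and both were tested on simulated data. Tags were also summed per gene over all its peaks of the same treatment, so the sites summed can differ between treatments. LPS effects and the interaction came from peaks of the 2 tables matched at 50% reciprocal overlap. The mouse number pairs libraries because both populations were sorted from the same animal, and the correlation of paired deviations from the group means was 0.0762 to 0.0897 in untreated mice and -0.064 to 0.149 after LPS. Gene positions are from GENCODE vM1, and 98.8% of promoter peaks lay within 1500 bp of a start of their symbol. Counting intervals (95%, exact) and floors (3 tags over a group) cover counting error only. The named peaks are those called in either table, the promoter peak and the strongest peak of each gene, and further Msr1, Cd36, Scarb1, Scarb2 and Stab1 sites were named after their values were seen. The result of a microglia marker is not reported here. The genes, lists and motifs were chosen with earlier results of these data known.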

Additional observations from a re-analysis of the deposited data

Results flagged for a closer look

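At 2 sites the response to LPS differed between the populations by the interaction term of the 12-library fit. At the Scarb1 peak 67.2 kb from the start the interaction was -2.13 ± 0.40 (adjusted p = 0.00025 by DESeq2, n = 3 libraries per group), and at the Cd36 peak 8.9 kb from the start it was -2.86 ± 0.63 (adjusted p = 0.00418). The Cd36 interaction did not pass without the CD45.2 library of untreated mouse 5 (-2.30, adjusted p = 0.177) or with size factors from total tags (-2.75, adjusted p = 0.0544). At both, the rise on the log2 scale was larger in host cells. Among all 39235 matched peaks 95 passed this test.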

How the results depend on the processing

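The 6 untreated Marco peaks were called in every fit that tested them, and no called peak changed sign under any alternative. A mean count of at least 20 left fewer peaks to test and lowered the counts higher in CD45.1 and CD45.2 cells to 4 and 3 scavenger receptor peaks in untreated mice (686 and 441 of all peaks) and to 3 and 1 after LPS (146 and 137). With the replicate block (mouse), 3 scavenger receptor peaks were higher in CD45.1 cells after LPS, 525 and 357 of all LPS peaks were called in the 2 directions and 51 of all matched peaks had an interaction. Beside the calls named in the report, the block ended no other call of a scavenger receptor gene or peak between the populations and no interaction. LPS and untreated mice are different animals, so no blocked fit of the LPS effects within a population was possible. Matching at 80% reciprocal overlap, which tested fewer peaks, left 35 interactions, edgeR called 880 LPS peaks higher in CD45.2 cells, and size factors from total tags left 1 of 2 untreated genes higher in CD45.1 cells. For the interaction that setting was chosen after seeing the data and left 27 of all matched peaks and 1 of the scavenger receptor peaks. Without 1 library the whole-table counts were 1346 to 2038 and 962 to 1363 in untreated mice and 328 to 613 and 242 to 352 after LPS, with 45 to 114 interactions. Scavenger receptor peaks higher in CD45.1 cells after LPS were then 3 to 4, interactions 1 to 3 and rises after LPS in CD45.1 cells 4 to 8. Sums near 0 changed sign without 1 library, at -0.06 to 0.11 for untreated Scarb1, -0.10 to 0.02 for untreated Scarb2, -0.33 to 0.00 for Cd68 after LPS and -0.14 to 0.10 for Stab1 after LPS, which was 0.07 with size factors from total tags. The cause was not tested. LPS libraries are shallower, so a peak missed after LPS may lie under the depth, and in untreated CD45.2 mouse 4 only 9.30% of tags lay in its own peaks.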
